A study of Mus musculus with 12 samples.

Results

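Spliceosome and splicing regulator genes were measured in thymic RNA of FVB/N mice, in T-cell lymphomas that arose with MYC and in normal thymocytes. The genes were chosen by name: every gene of the array whose symbol begins with Sf3a, Sf3b, Srsf, Snrp, Prpf, Hnrnp or the older Hnrp, or with Lsm followed by a digit. Of 19309 genes with a probe set of a single symbol, 71 matched, from 94 probe sets. A gene with several probe sets was represented by the brightest one on average. All 71 were tested, with no filter on dim genes. A further 17 probe sets name a splicing gene together with another symbol and were not used here.

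The 12 arrays fell into 3 groups: 4 Dnmt3a-deficient tumors, 5 control tumors with a wild-type genotype label, and 3 samples of wild-type normal thymocytes aged 24 dpn. Both kinds of tumor, taken at the terminal stage, carried MYC. In the deficient tumors the gene of Dnmt3a, an enzyme that methylates DNA, had been removed from blood cells. The labels do not name the promoter of MYC, the Cre line, or separate animals for the arrays. The p-values therefore measure a spread that may be technical. No batch is named, and the age of the normal mice cannot be told apart from their group.

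Splicing removes introns from the precursors of mRNA. The spliceosome is built from small nuclear ribonucleoproteins (snRNPs), each an RNA bound by a ring of Sm or Lsm proteins and by proteins of its own. U1 recognises the 5′ splice site, U2 the branch point, and the tri-snRNP of U4, U6 and U5 then joins. SR proteins, with domains rich in arginine and serine, mostly favour the use of a nearby exon, and hnRNP proteins often oppose it. MYC is known to raise several splicing factors in other systems, and in T cells Hnrnpll and Hnrnpl promote skipping of exons of the phosphatase gene Ptprc (CD45).

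Dnmt3a itself had a log2 level of 7.42 ± 0.20 in deficient tumors (SD, n = 4), against 8.67 ± 0.53 in control tumors (n = 5) and 9.48 ± 0.15 in normal thymocytes (n = 3). Markers of T cells were present on every array, with a mean over 11 genes of 10.05 to 10.65 in deficient tumors, 10.22 to 10.95 in control tumors and 11.62 to 11.67 in normal thymocytes (log2). The mean of 11 proliferation genes was 10.68 to 10.90 in deficient tumors, 9.94 to 10.62 in control tumors and 8.96 to 9.46 in normal thymocytes, and its part in the results was not tested. In bulk RNA, fewer cells of a type and less RNA per cell cannot be told apart. The control tumors were not alike, a division seen in the values and not given by the labels. Control tumors 1 and 2 had a 75th percentile over all genes of 8.47 and 8.44, close to the deficient tumors (8.43 to 8.52), while control tumors 3, 4 and 5 had 8.19, 8.16 and 8.17, nearer to normal thymocytes (8.04 to 8.12). The mean of 8 neutrophil markers was 8.38 and 8.25 in control tumors 3 and 4 and 5.82, 5.83 and 5.82 in control tumors 1, 2 and 5, with 5.45 to 6.07 in deficient tumors and 6.57 to 6.98 in normal thymocytes. The mean of 8 macrophage markers was 7.32 to 8.19 in deficient tumors, 6.32 to 8.31 in control tumors and 6.80 to 7.07 in normal thymocytes, so that every deficient tumor lay above every normal sample. In deficient tumors 2 of these markers were called higher, Adgre1 (log2 difference 0.865) and Itgam (0.86). The other 6 were not called, among them C1qa (-0.07) and Csf1r (0.02). Itgam was also called higher in control tumors (1.22, limma adjusted p = 0.00157). The mean of 7 markers of stroma and endothelium was 6.53 to 6.79 in deficient tumors, 6.57 to 6.90 in control tumors and 7.04 to 7.08 in normal thymocytes, lower in every tumor than in every normal sample. Of these markers only Pecam1 was called lower (-1.19 in deficient and -0.765 in control tumors), and the other 6 were not called in either tumor group. Markers of B cells averaged 5.80 to 6.404 in deficient tumors, 5.43 to 6.24 in control tumors and 6.24 to 6.28 in normal thymocytes, those of erythroid cells 5.75 to 6.33 in deficient tumors, 5.40 to 6.08 in control tumors and 6.31 to 6.84 in normal thymocytes, and those of thymic epithelium 6.002 to 6.90 in deficient tumors, 5.80 to 6.33 in control tumors and 6.38 to 6.48 in normal thymocytes. The part of these cell types in the results was not tested.

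Splicing genes differed between tumors and normal thymocytes in both directions, gene by gene, and most of the called differences were increases. A gene was called higher or lower where limma, fitted to all 12 arrays and all 19309 genes, gave a Benjamini-Hochberg adjusted p under 0.05. In Dnmt3a-deficient tumors 30 of the 71 genes were higher and 7 lower than in normal thymocytes. These are 42.3% and 9.86% of the splicing genes, beside 18.7% and 19.0% of all genes (37.6% in either direction). Among the brighter 50% of genes, which hold 69 of the 71, the shares were 34.5% and 19.8%. In control tumors 21 were higher and 1 was lower, 29.6% and 1.41%, beside 13.0% and 11.3% of all genes (24.4% in either direction) and 24.8% and 16.0% of the brighter 50%. Increases of at least 2-fold were called for 14 genes in deficient tumors, 19.7% of the splicing genes, beside 11.8% of all genes and 22.2% of the brighter 50%. In control tumors they were called for 10 genes (14.1%), beside 7.61% of all genes and 14.7% of the brighter 50%. Against that brighter set the share of increases of this size was no higher in the splicing genes. Every tumor lay above every normal sample for 36 splicing genes in deficient tumors (50.7%, beside 23.0% of all genes and 41.1% of the brighter 50%). In control tumors this held for 24 (33.8%, beside 13.8% and 25.6%). Every tumor lay below every normal sample for 14 splicing genes in deficient tumors (19.7%, beside 5157 of 19309 genes and 2446 of the 9654 brighter genes). In control tumors that held for 4 (5.63%, beside 2695 and 1774). Both comparisons use the same normal arrays. Without control tumors 3, 4 and 5, 21 splicing genes were called higher and 13 lower in control tumors (19.2% and 16.3% of all genes).

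**Figure D1:**
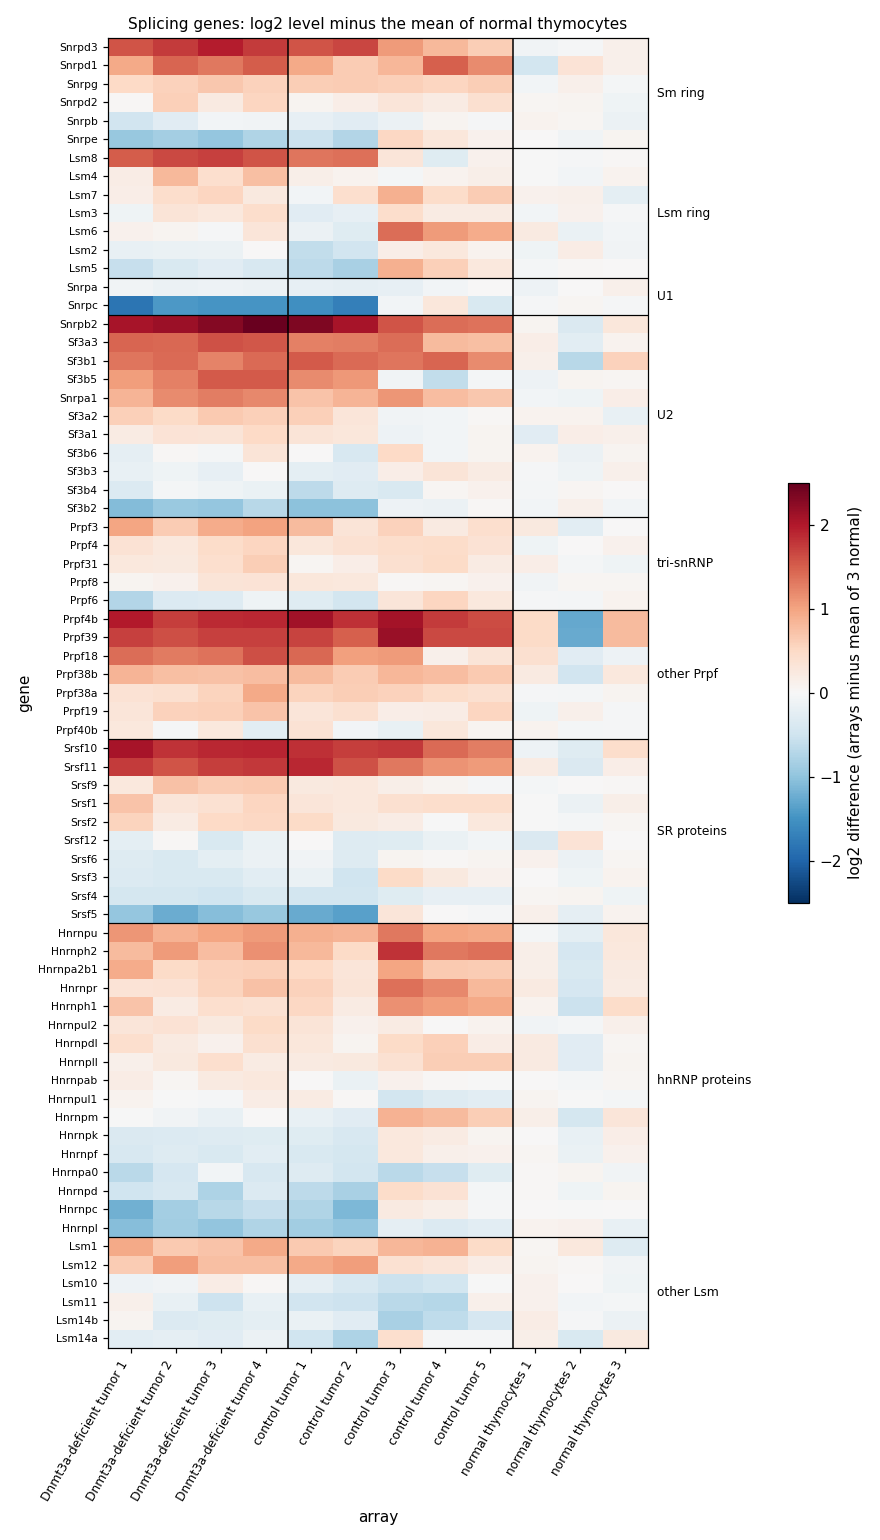
Log2 level of each of the 71 splicing genes on each of the 12 arrays, minus that gene's mean in the 3 normal thymocyte samples, with arrays across (deficient tumors, control tumors, normal thymocytes) and genes down the page by role. Red is above and blue below the normal mean, so that Snrpb2, Srsf10 and Prpf4b are red in all 9 tumors, while Snrpc and Srsf5 are blue in the deficient tumors and in control tumors 1 and 2.

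How many genes moved each way depended on how the arrays were scaled. As deposited, the median log2 difference of the 71 genes was 0.34 in deficient tumors and 0.16 in control tumors, beside -0.10 and -0.08 over all genes and 0.20 and 0.06 over the brighter 50%. After centring each array on its median it was 0.42 and 0.17. After cyclic loess it was 0.03 and 0.05, and after centring each array on its 75th percentile -0.04 and -0.05, where the median of all genes was -0.49 and -0.28. In deficient tumors centring on the median called 31 higher and 4 lower (20.3% and 13.3% of all genes), centring on the 75th percentile 15 higher and 19 lower (13.2% and 47.9% of all genes), and cyclic loess 16 higher and 16 lower (17.1% and 15.4% of all genes). A second quantile normalization called 18 higher and 11 lower (16.0% and 18.5% of all genes). In control tumors the median called 22 higher and 0 lower (13.3% and 9.96% of all genes), the 75th percentile 14 higher and 6 lower (10.3% and 21.7% of all genes), cyclic loess 16 higher and 4 lower (12.7% and 10.8% of all genes) and the second quantile normalization 16 higher and 6 lower (12.1% and 13.8% of all genes). Of the 37 calls in deficient tumors, 19 held under all 4 other scalings (15 higher, 4 lower), and of the 22 in control tumors 14 held, each of them higher. These are 51.4% and 63.6% of the calls, lower shares than the 63.0% and 76.4% of the calls over all genes that held. As shares of all genes tested they are 26.8% and 19.7% of the splicing genes, beside 23.7% and 18.6% of all genes and 40.4% and 33.7% of the brighter 50%.

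**Figure D2:**
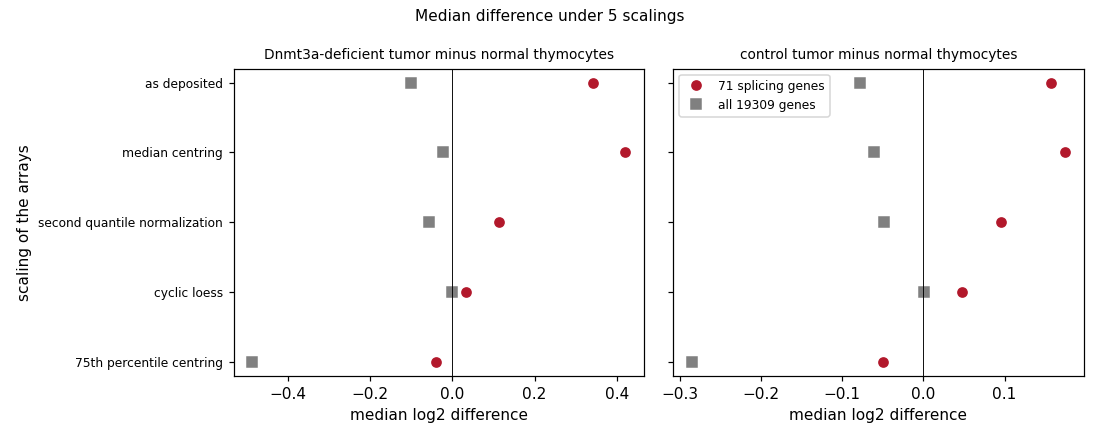
Median log2 difference from normal thymocytes (horizontal axis) of the 71 splicing genes (circles) and of all 19309 genes (squares) under the deposited scaling and 4 others (vertical axis), for deficient tumors on the left and control tumors on the right. The circles lie to the right of the squares under each scaling, and fall below 0 under 75th percentile centring (-0.04 and -0.05).

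Promoter sequence is shown for 5 of the genes, Snrpb2, Sf3a3 and Prpf39, which were higher in tumors, and Snrpe and Srsf5, which were lower in deficient tumors. They were picked after their values were seen, to set genes of opposite direction side by side. RefSeq windows of 300 bases (GRCm38.p6), from 250 before to 50 after a gene's start, were found for 61 of the 71. Capitals mark CACGTG, the E-box bound by MYC with its partner MAX, and CCGGAAG, a core bound by ETS factors, which reads CTTCCGG on the other strand. The windows are chr2:143062819-143063118 (Snrpb2, plus strand), chr4:124714611-124714910 (Sf3a3, plus strand), chr12:65036084-65036383 (Prpf39, plus strand), chr1:133610231-133610530 (Snrpe, minus strand) and chr12:80945249-80945548 (Srsf5, plus strand).
Snrpb2: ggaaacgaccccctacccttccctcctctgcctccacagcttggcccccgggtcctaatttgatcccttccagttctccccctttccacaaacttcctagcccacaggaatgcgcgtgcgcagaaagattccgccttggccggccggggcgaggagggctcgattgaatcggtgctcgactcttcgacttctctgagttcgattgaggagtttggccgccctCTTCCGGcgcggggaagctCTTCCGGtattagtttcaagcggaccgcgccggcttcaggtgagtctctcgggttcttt
Sf3a3: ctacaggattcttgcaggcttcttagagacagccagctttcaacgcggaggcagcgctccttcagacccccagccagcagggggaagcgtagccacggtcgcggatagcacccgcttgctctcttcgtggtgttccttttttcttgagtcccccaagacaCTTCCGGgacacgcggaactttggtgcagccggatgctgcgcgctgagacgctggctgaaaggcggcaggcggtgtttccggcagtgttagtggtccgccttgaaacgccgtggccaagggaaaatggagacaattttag
Prpf39: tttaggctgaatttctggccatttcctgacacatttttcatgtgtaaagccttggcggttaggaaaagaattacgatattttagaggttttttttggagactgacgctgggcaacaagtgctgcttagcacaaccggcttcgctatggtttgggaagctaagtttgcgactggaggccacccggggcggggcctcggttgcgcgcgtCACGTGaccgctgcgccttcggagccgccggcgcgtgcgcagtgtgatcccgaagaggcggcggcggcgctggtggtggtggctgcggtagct
Snrpe: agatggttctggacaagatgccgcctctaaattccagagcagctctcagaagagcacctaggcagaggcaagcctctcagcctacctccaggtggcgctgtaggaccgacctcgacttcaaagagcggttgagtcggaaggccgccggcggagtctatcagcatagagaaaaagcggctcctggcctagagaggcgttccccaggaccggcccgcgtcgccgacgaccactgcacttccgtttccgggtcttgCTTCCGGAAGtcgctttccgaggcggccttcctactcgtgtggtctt
Srsf5: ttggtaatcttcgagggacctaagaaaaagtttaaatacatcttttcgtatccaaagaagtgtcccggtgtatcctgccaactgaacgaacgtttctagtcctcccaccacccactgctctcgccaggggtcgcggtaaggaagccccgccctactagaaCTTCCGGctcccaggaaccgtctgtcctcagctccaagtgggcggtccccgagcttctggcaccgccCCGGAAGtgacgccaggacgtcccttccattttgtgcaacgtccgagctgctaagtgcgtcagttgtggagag

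Of these windows, that of Prpf39 holds the E-box and the other 4 hold the ETS core, whose matches in Snrpe overlap on opposite strands. Over the splicing genes with a window, 8 held the E-box (13.1%, beside 9.57% of 15151 genes of the array) and 20 the ETS core (32.8%, beside 13.8%). The median GC content was 60.8% for splicing genes and 57.7% for genes of the array. A match is a description of the letters and not a bound site.

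Proteins of the U2 snRNP held the gene with the largest difference. Of 11 measured genes, 6 were higher and 1 lower in deficient tumors and 4 were higher in control tumors, with a median log2 difference of 0.58 and 0.16. Counts by role, here and below, are to be read beside the shares of other genes. In deficient tumors 18.7% of all genes were higher and 19.0% lower (34.5% and 19.8% of the brighter 50%). In control tumors the shares were 13.0% and 11.3% (24.8% and 16.0% of the brighter 50%). Snrpb2, which encodes the U2-B″ protein that binds the U2 RNA, had log2 levels of 10.66, 10.73, 10.88 and 11.07 in deficient tumors, 10.92, 10.66, 10.17, 9.995 and 9.94 in control tumors and 8.66, 8.23 and 8.88 in normal thymocytes. Every tumor lay above every normal sample. The log2 difference was 2.24 in deficient tumors (SE 0.243, limma adjusted p = 1.66e-05), a 4.74-fold increase, and 1.75 (SE 0.232, adjusted p = 0.000126) in control tumors. Snrpa1, its partner U2-A′, was higher by log2 1.12 (SE 0.153, adjusted p = 9.44e-05) in deficient tumors and by 0.82 (SE 0.146, adjusted p = 0.00106) in control tumors.

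The SF3a and SF3b complexes hold U2 at the branch point. Sf3b1, the subunit that clamps around the branch helix and is often mutated in human blood cancers, had log2 levels of 11.15, 11.22, 11.05 and 11.22 in deficient tumors, 11.34, 11.22, 11.14, 11.26 and 10.98 in control tumors and 9.94, 9.11 and 10.37 in normal thymocytes. The 9 tumors lay within a narrow range above a wider normal group, whose SD was 0.64. The log2 difference was 1.35 (SE 0.229, adjusted p = 0.000505) in deficient tumors and 1.38 (SE 0.218, adjusted p = 0.000459) in control tumors. Sf3a3 had 10.45, 10.42, 10.58 and 10.54 in deficient tumors, 10.26, 10.28, 10.39, 9.79 and 9.76 in control tumors and 9.17, 8.73 and 9.09 in normal thymocytes. It too had no overlap between tumors and normal samples, with differences of 1.502 (SE 0.182, adjusted p = 3.91e-05) in deficient tumors and 1.10 (SE 0.174, adjusted p = 0.000453) in control tumors. Other subunits of these complexes gave small differences without a call, in deficient and then in control tumors -0.13 and 0.03 for Sf3b3, -0.16 and -0.24 for Sf3b4, and 0.02 and 0.02 for Sf3b6.

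Sf3b5 and Sf3b2, further SF3b subunits, differed among the control tumors as the 75th percentile did. Sf3b5 had log2 levels of 8.98, 9.20, 9.47 and 9.46 in deficient tumors, 9.12 and 9.02 in control tumors 1 and 2, 7.84, 7.32 and 7.89 in control tumors 3, 4 and 5, and 7.81, 8.01 and 7.99 in normal thymocytes. Sf3b2 had 8.96, 9.12, 9.08 and 9.35 in deficient tumors, 9.02 and 9.02 in control tumors 1 and 2, 9.91, 9.89 and 10.08 in control tumors 3, 4 and 5, and 9.98, 10.16 and 9.98 in normal thymocytes. For Sf3b5 the deficient tumors and control tumors 1 and 2 were high, and for Sf3b2 they were low. Against normal thymocytes, Sf3b5 differed by 1.34 (adjusted p = 0.0107) in deficient tumors and 0.30 (adjusted p = 0.581) in control tumors. Sf3b2 differed by -0.92 (adjusted p = 0.0122) in deficient tumors and -0.46 (adjusted p = 0.198) in control tumors. Sf3a2 was higher in deficient tumors by 0.58 (adjusted p = 0.0177), and Sf3a1 was not called (0.34 and 0.10).

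The Sm ring, which coats the U1, U2, U4 and U5 RNAs, did not move as a unit. Of 6 measured Sm genes, 3 were higher and 1 lower in deficient tumors, and 3 were higher in control tumors. Snrpd3, which encodes SmD3, had log2 levels of 11.76, 11.93, 12.15 and 11.94 in deficient tumors, 11.78, 11.85, 11.26, 11.00 and 10.81 in control tumors and 10.10, 10.16 and 10.31 in normal thymocytes. All tumors lay above all normal samples, with differences of 1.75 (SE 0.232, adjusted p = 7.74e-05) in deficient tumors and 1.15 (SE 0.222, adjusted p = 0.00198) in control tumors. Snrpd1, for SmD1, was higher by log2 1.30 (adjusted p = 0.000735) and 1.01 (adjusted p = 0.0045). Snrpg, for SmG, was higher by 0.58 (adjusted p = 0.0016) and 0.60 (adjusted p = 0.00143), but a second, dimmer probe set gave -0.47 in deficient tumors and 0.17 in control tumors.

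Snrpe, for SmE, was the Sm gene called lower. Its log2 levels were 10.19, 10.28, 10.16 and 10.37 in deficient tumors, 10.59 and 10.39 in control tumors 1 and 2, 11.64, 11.41 and 11.24 in control tumors 3, 4 and 5, and 11.14, 11.04 and 11.20 in normal thymocytes. The deficient tumors lay below all other arrays. They differed from normal thymocytes by -0.87 (SE 0.254, adjusted p = 0.0161), while control tumors differed by -0.07 (adjusted p = 0.867). Snrpb (-0.23 in deficient tumors and -0.12 in control tumors) and Snrpd2 (0.34 and 0.23) were not called, and all 5 probe sets of Snrpd2 gave positive differences.

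In the U1 snRNP, Snrpc was lower in deficient tumors and Snrpa was not called (-0.12 in deficient tumors and -0.14 in control tumors). Snrpc encodes U1-C, which steadies the pairing of U1 with the 5′ splice site. Its log2 levels were 8.92, 9.31, 9.27 and 9.27 in deficient tumors, 9.21 and 9.04 in control tumors 1 and 2, 10.68, 11.02 and 10.37 in control tumors 3, 4 and 5, and 10.73, 10.81 and 10.72 in normal thymocytes. The deficient tumors and control tumors 1 and 2 lay below all other arrays. The difference from normal thymocytes was -1.56 (SE 0.397, adjusted p = 0.00785) in deficient tumors, a 2.94-fold decrease, and -0.68 (SE 0.379, adjusted p = 0.218) in control tumors. Of the other probe sets named Snrpc, the first gave -1.46 and -0.67, and the dimmest gave -0.67 and -0.65.

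The Lsm ring binds the end of U6 RNA in the nucleus, and Lsm8 is the subunit that sets it apart from the cytoplasmic ring. Lsm8 had log2 levels of 9.77, 9.91, 9.97 and 9.83 in deficient tumors, 9.59 and 9.64 in control tumors 1 and 2, 8.56, 7.95 and 8.36 in control tumors 3, 4 and 5, and 8.24, 8.24 and 8.30 in normal thymocytes. The deficient tumors lay above all other arrays. The difference from normal thymocytes was 1.61 (SE 0.339, adjusted p = 0.00238) in deficient tumors, a 3.05-fold increase, and 0.56 (SE 0.324, adjusted p = 0.238) in control tumors. Lsm4 was also higher in deficient tumors, by 0.54 (adjusted p = 0.0158). The remaining 5 genes of the ring were not called, with differences of -0.41 to 0.35 in deficient tumors and -0.11 to 0.58 in control tumors.

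Lsm1 takes the place of Lsm8 in the cytoplasmic ring, which promotes decapping of mRNA. It was higher by log2 0.82 (SE 0.165, adjusted p = 0.0018) in deficient tumors and 0.68 (SE 0.158, adjusted p = 0.00633) in control tumors. Lsm12 was higher in deficient tumors, by 0.80 (adjusted p = 0.00942). Lsm10 and Lsm11, of the U7 particle that trims histone mRNA, were not called, with -0.19 and -0.45 for Lsm11.

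**Figure D3:**
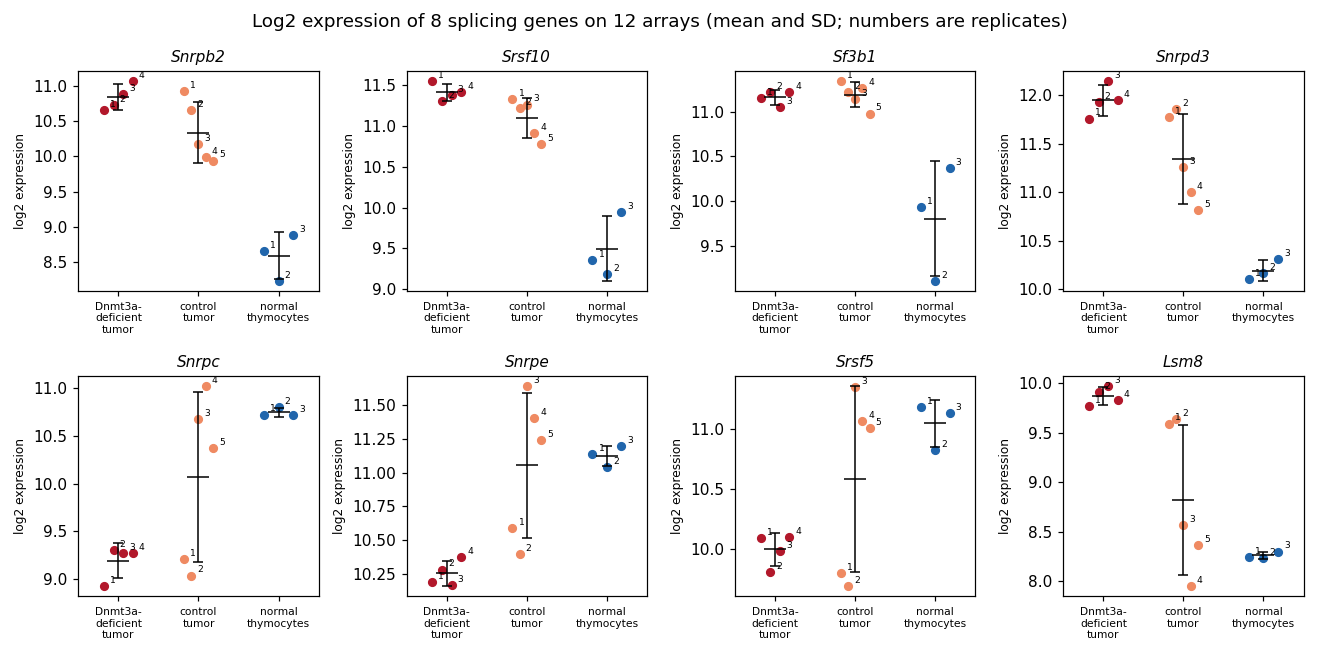
Log2 expression (vertical axis) of 8 splicing genes on each array, with deficient tumors, control tumors and normal thymocytes from left to right; points are arrays numbered by replicate and bars the mean and SD. Snrpb2, Srsf10, Sf3b1 and Snrpd3 lie above normal thymocytes in all 9 tumors, while for Snrpc, Snrpe, Srsf5 and Lsm8 control tumors 1 and 2 lie beside the deficient tumors.

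Genes named for yeast precursor RNA processing factors include 5 of the tri-snRNP. Prpf3, of the U4/U6 particle, was higher by log2 0.89 (SE 0.173, adjusted p = 0.00139) in deficient tumors, with 0.47 (adjusted p = 0.0553) in control tumors. Prpf4, its partner, was higher by 0.40 (adjusted p = 0.0211) and 0.38 (adjusted p = 0.0295). Without normal thymocytes 2 Prpf4 was called in neither tumor group (adjusted p = 0.054 and 0.08). Prpf8, the large protein at the catalytic centre, was not called (0.21 in deficient tumors and 0.14 in control tumors), nor were Prpf31 and Prpf6.

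Of the 7 other Prpf genes 6 were higher in deficient tumors and 5 in control tumors. Over all genes 18.7% and 13.0% were higher, and over the brighter 50% of genes 34.5% and 24.8%. Prpf39, a U1-associated factor, had log2 levels of 8.29, 8.20, 8.29 and 8.30 in deficient tumors, 8.27, 8.08, 8.74, 8.23 and 8.22 in control tumors and 7.06, 5.32 and 7.36 in normal thymocytes. The tumors lay close together, and normal thymocytes 2 lay far below the other normal samples. The difference was 1.69 (SE 0.361, adjusted p = 0.00265) in deficient tumors and 1.73 (SE 0.345, adjusted p = 0.00243) in control tumors, and without normal thymocytes 2 it was 1.06 (adjusted p = 0.0014) and 1.10 (adjusted p = 0.00138). Prpf4b, a kinase that acts on spliceosomal proteins, was likewise low in normal thymocytes 2 (8.53, 6.77 and 8.84 over the normal samples) and was higher by log2 1.87 (adjusted p = 0.00137) in deficient tumors and 1.87 (adjusted p = 0.00142) in control tumors, or by 1.23 (adjusted p = 0.000361) and 1.23 (adjusted p = 0.000433) without that array.

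Normal thymocytes 2 had the lowest level of the 3 normal samples for 40 of the 71 genes (56.3%, beside 31.5% of all genes). Without that array 26 splicing genes were called in deficient tumors (28.0% of all genes) and 15 in control tumors (16.6% of all genes). In deficient tumors Lsm4, Sf3b2, Srsf1, Srsf2, Srsf4, Srsf5 and Hnrnpul2 were then no longer called. Their limma adjusted p ran from 0.0501 for Sf3b2 to 0.124 for Hnrnpul2. Prpf18, a factor of the second step of splicing, was higher by 1.41 (adjusted p = 0.00167) in deficient tumors and 0.79 (adjusted p = 0.0471) in control tumors, and without that array the difference in control tumors was 0.66 (adjusted p = 0.193) and no longer called. Prpf38a and Prpf38b were called higher in each tumor group, and Prpf19, a ubiquitin ligase of the spliceosome, in deficient tumors (0.55, adjusted p = 0.0102). Without normal thymocytes 2 Prpf38a was no longer called in control tumors, at 0.498 (adjusted p = 0.0664).

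Among the SR proteins, 5 of 10 were higher and 2 lower in deficient tumors, and 2 were higher in control tumors. Srsf10, an unusual member that represses splicing once it loses its phosphates, had log2 levels of 11.55, 11.30, 11.38 and 11.41 in deficient tumors, 11.33, 11.22, 11.26, 10.91 and 10.77 in control tumors and 9.36, 9.19 and 9.94 in normal thymocytes. No tumor overlapped a normal sample. The difference was 1.91 (SE 0.193, adjusted p = 9.78e-06) in deficient tumors, a 3.76-fold increase, and 1.60 (SE 0.185, adjusted p = 4.13e-05) in control tumors, and a second, dimmer probe set gave 0.42 and 0.51. In that dimmer set the groups overlapped, with normal thymocytes 1 at 8.415 and the deficient tumors at 7.81 to 8.34. Srsf11 had 10.14, 9.96, 10.13 and 10.17 in deficient tumors, 10.28, 9.99, 9.72, 9.52 and 9.46 in control tumors and 8.60, 8.03 and 8.56 in normal thymocytes. For Srsf11 no tumor overlapped a normal sample, with differences of 1.70 (SE 0.206, adjusted p = 3.89e-05) in deficient tumors and 1.40 (SE 0.197, adjusted p = 0.000191) in control tumors.

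The classical SR proteins gave smaller differences. Srsf1, a known MYC target, was higher in deficient tumors by log2 0.48 (SE 0.138, adjusted p = 0.0148) and differed by 0.37 (SE 0.132, adjusted p = 0.06) in control tumors. Every tumor lay above every normal sample for Srsf1, with 10.62 to 11.02 in deficient tumors, 10.57 to 10.74 in control tumors and 10.16 to 10.47 in normal thymocytes. Srsf2 (0.44, adjusted p = 0.028) and Srsf9 (0.57, adjusted p = 0.00712) were higher in deficient tumors, and in control tumors differed by 0.23 and 0.14 without a call. The calls of Srsf1, Srsf2 and Srsf9 were each found under 1 of the 4 other scalings. Srsf3 (-0.34 and 0.04) and Srsf6 (-0.27 and -0.05) were not called.

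Srsf5 and Srsf4 were lower in deficient tumors. Srsf5 had log2 levels of 10.09, 9.80, 9.98 and 10.10 in deficient tumors, 9.80 and 9.68 in control tumors 1 and 2, 11.35, 11.07 and 11.01 in control tumors 3, 4 and 5, and 11.18, 10.83 and 11.14 in normal thymocytes. Deficient tumors and control tumors 1 and 2 lay below all other arrays. The difference was -1.06 (SE 0.354, adjusted p = 0.0317) in deficient tumors and -0.47 (SE 0.339, adjusted p = 0.354) in control tumors, and the other probe set gave -1.03 and -0.52. The Srsf5 call was found in 5 of the 12 fits that left out an array. Srsf4 differed by -0.44 (SE 0.125, adjusted p = 0.0143) in deficient tumors, with -0.33 (adjusted p = 0.0608) in control tumors.

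Of 17 hnRNP genes, 4 were higher and 2 lower in deficient tumors, and 5 were higher and 1 lower in control tumors. Hnrnpu, a chromatin-associated RNA binding protein, had log2 levels of 12.19, 11.96, 12.07 and 12.16 in deficient tumors, 11.98, 11.93, 12.40, 12.08 and 12.04 in control tumors and 11.04, 10.85 and 11.37 in normal thymocytes. It was higher by log2 1.01 (SE 0.158, adjusted p = 0.000293) in deficient tumors and 0.999 (SE 0.152, adjusted p = 0.000333) in control tumors, with no overlap between tumors and normal samples. Hnrnph2 was higher by 0.94 (adjusted p = 0.0165) and 1.16 (adjusted p = 0.00563). Hnrnpa2b1, which regulates splicing of the pyruvate kinase gene in other cells, was higher by 0.65 (adjusted p = 0.0192) and 0.62 (adjusted p = 0.028). In deficient tumors the calls of Hnrnph2 and Hnrnpa2b1 were each found under 1 of the 4 other scalings. In control tumors Hnrnpr (0.86, adjusted p = 0.0179) and Hnrnph1 (0.77, adjusted p = 0.0391) were also higher. Without normal thymocytes 2 neither was called, at 0.645 (adjusted p = 0.115) and 0.50 (adjusted p = 0.221). Hnrnpa2b1 was then not called in deficient tumors (0.46, adjusted p = 0.106) or control tumors (0.43, adjusted p = 0.164). Hnrnph2 was then not called in deficient tumors (0.74, adjusted p = 0.0893).

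Hnrnpl and Hnrnpll, the regulators of Ptprc exons, gave differences of opposite sign. Hnrnpl had log2 levels of 10.60, 10.80, 10.68 and 10.90 in deficient tumors, 10.79, 10.69, 11.43, 11.33 and 11.40 in control tumors and 11.74, 11.77 and 11.48 in normal thymocytes. All tumors lay below all normal samples, with differences of -0.92 (SE 0.197, adjusted p = 0.00272) in deficient tumors and -0.54 (SE 0.189, adjusted p = 0.0546) in control tumors. Hnrnpll was not called, at 0.25 (adjusted p = 0.243) and 0.42 (adjusted p = 0.0633). Hnrnpc, which binds uridine tracts, was lower in deficient tumors, at -0.83 (SE 0.291, adjusted p = 0.0394), and Hnrnpa0 was lower in control tumors, at -0.47 (SE 0.15, adjusted p = 0.037). Without normal thymocytes 2 neither was called, at -0.83 (adjusted p = 0.0935) and -0.44 (adjusted p = 0.122). The hnRNP genes Hnrnpab, Hnrnpd, Hnrnpdl, Hnrnpf, Hnrnpk, Hnrnpm and Hnrnpul1 were not called. Hnrnpk and Hnrnpf had further, dimmer probe sets, without a test of their own. In deficient tumors those of Hnrnpk gave -0.31 and -1.06, and those of Hnrnpf -0.47, -0.47 and -0.77. In control tumors they gave -0.025 and -0.35 for Hnrnpk and -0.16 to -0.22 for Hnrnpf.

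**Figure D4:**
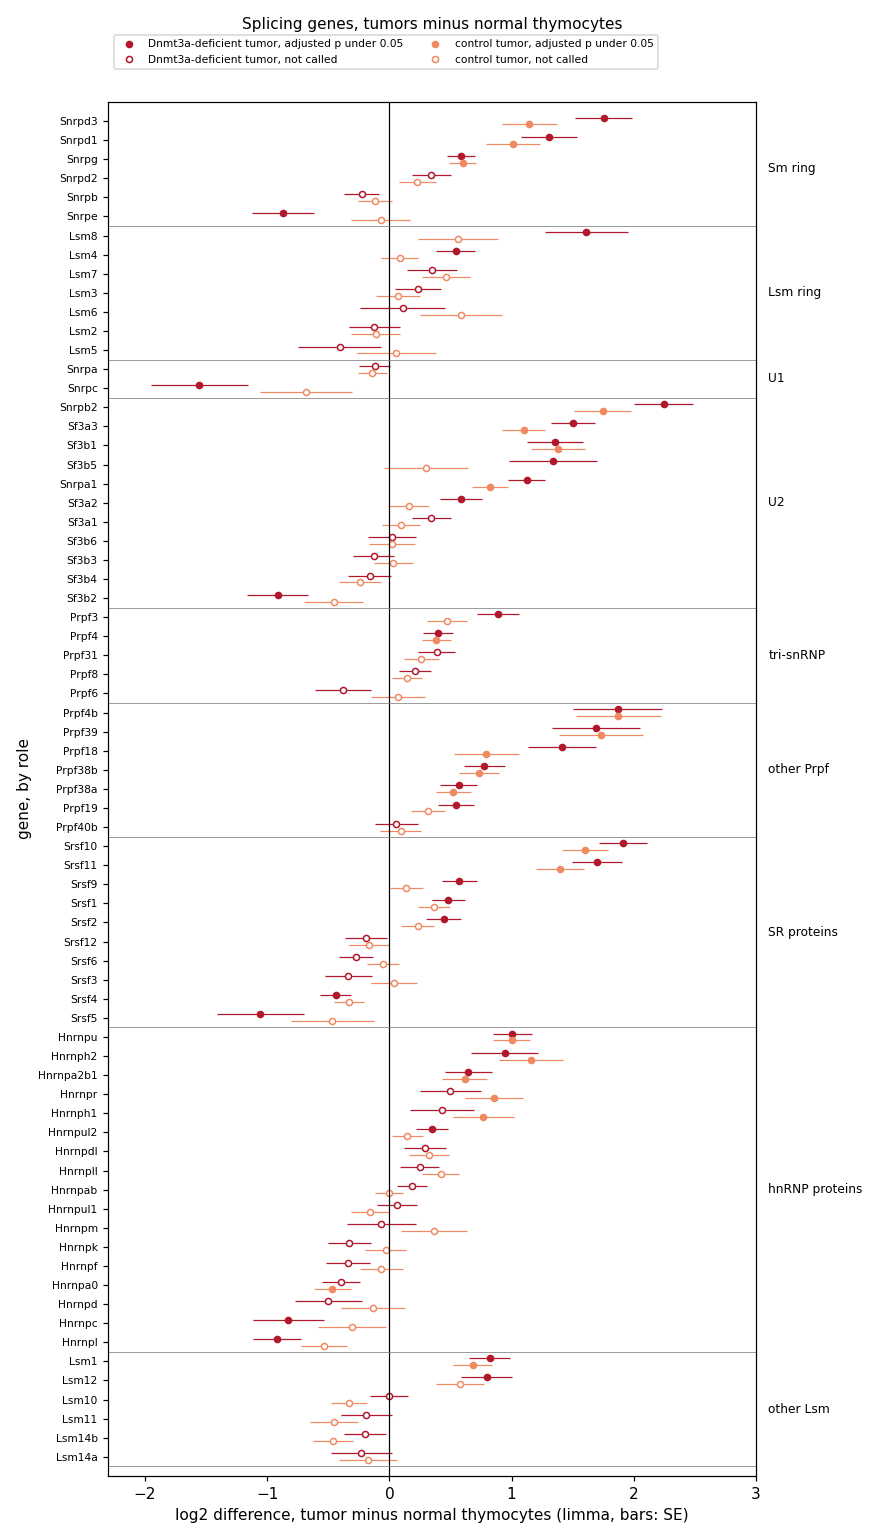
Log2 difference from normal thymocytes (horizontal axis, limma, bars are SE) of the 71 splicing genes by role (vertical axis), for deficient tumors (dark red) above control tumors (orange); filled points had an adjusted p under 0.05. Values run up to 2.24 for Snrpb2 and down to -1.56 for Snrpc, each in deficient tumors.

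Calls that held in all 12 fits without an array, under all 4 other scalings and without either set of control tumors were found for 17 genes in deficient tumors and 14 in control tumors, by a rule set after the values were seen. These are 23.9% and 19.7% of the splicing genes, beside 21.7% and 13.8% of all genes and 37.0% and 25.3% of the brighter 50%, above the shares of all genes and below those of the brighter 50%. In deficient tumors they were Hnrnpl, Hnrnpu, Lsm8, Prpf18, Prpf3, Prpf39, Prpf4b, Sf3a3, Sf3b1, Sf3b5, Snrpa1, Snrpb2, Snrpc, Snrpd1, Snrpd3, Srsf10 and Srsf11, of which Hnrnpl and Snrpc were lower. In control tumors they were Hnrnph2, Hnrnpu, Prpf38b, Prpf39, Prpf4b, Sf3a3, Sf3b1, Snrpa1, Snrpb2, Snrpd1, Snrpd3, Snrpg, Srsf10 and Srsf11, each of them higher.

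Deficient and control tumors were compared to ask whether loss of Dnmt3a went with other levels of splicing genes. None of the 71 was called by limma (0.818% of all genes were), and the lowest adjusted p was 0.101, for Snrpe. At an unadjusted p under 0.05 there were 17 splicing genes (23.9%, beside 20.2% of all genes). The median log2 difference was 0.02, beside -0.01 over all genes. Single genes ran from -0.87 (SE 0.348, adjusted p = 0.188) for Snrpc to 1.05 (SE 0.298, adjusted p = 0.105) for Lsm8. Of the other probe sets of Snrpc, the first gave -0.79 and the dimmest -0.02. For Lsm8, Lsm4 and Sf3a3 every deficient tumor lay above every control tumor (3.8% of all genes), and for Snrpe every deficient tumor lay below (2.35% of all genes).

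The spread of the control tumors bears on that count. Control tumors 1 and 2 lay apart from control tumors 3, 4 and 5 without overlap for 45 of the 71 genes (63.4%, beside 46.6% of all genes), below them for 32 and above for 13. The sets were divided by these same values, so fits without either set describe the division and do not test it. Without control tumors 1 and 2, limma called 13 genes higher and 15 lower in deficient tumors (39.4%, beside 25.3% of all genes). Without control tumors 3, 4 and 5 it called none (0.425% of all genes). With control tumor 1 alone left out it called 3 higher and 1 lower (5.24% of all genes), and with control tumor 2 alone left out 3 higher and 3 lower (7.68%). With weights for each array and all 5 control tumors it called 9 higher and 9 lower (17.2% of all genes).

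Snrpc, Lsm8 and Srsf5 are given as examples, picked because they show this division, and without a test. For Snrpc the deficient minus control difference was -1.501 without control tumors 1 and 2, and 0.07 without the other 3. For Lsm8 it was 1.58 without control tumors 1 and 2, and 0.26 without the other 3. For Srsf5 it was -1.15 without control tumors 1 and 2, and 0.25 without the other 3. In the dimmest probe set of Snrpc the division was not free of overlap. That probe set had 8.16 and 7.55 in control tumors 1 and 2, and 8.47, 8.96 and 8.04 in control tumors 3, 4 and 5. The 75th percentile of the arrays moved with the same division, and its part was not tested.

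**Figure D5:**
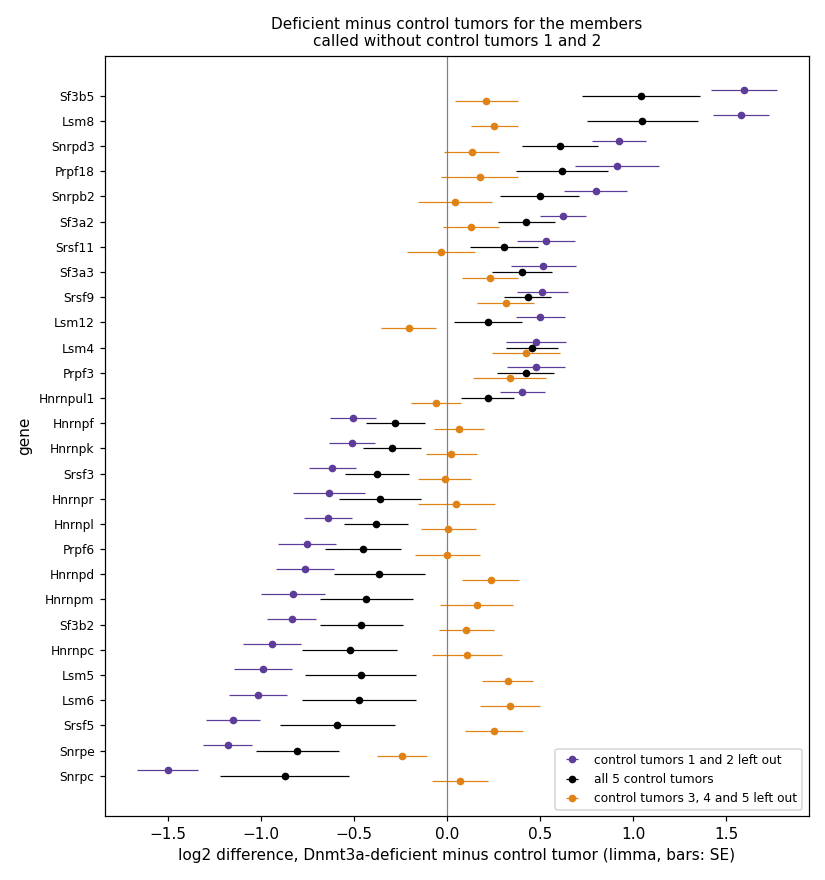
Log2 difference, Dnmt3a-deficient minus control tumor (horizontal axis, limma, bars are SE), of the 28 splicing genes (vertical axis) called when control tumors 1 and 2 were left out, for that fit (purple), for all 5 control tumors (black) and for the fit without control tumors 3, 4 and 5 (orange). The genes were chosen by the purple fit, where absolute differences run from 0.40 to 1.60. In the orange fit they run up to 0.42, and 12 of the 28 genes have the sign of the purple fit.

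Splicing genes outside the naming rule gave further values. Of 54 other spliceosome proteins and regulators, 26 were higher and 5 lower in deficient tumors, and 21 higher and 5 lower in control tumors. Over all genes, 18.7% were higher and 19.0% lower in deficient tumors, and 13.0% and 11.3% in control tumors. Over the brighter 50% of genes the shares were 34.5% and 19.8% in deficient tumors and 24.8% and 16.0% in control tumors. Rbm25, which binds exonic enhancers, was higher by log2 2.29 (adjusted p = 2.97e-05) in deficient tumors and 2.04 (adjusted p = 8.07e-05) in control tumors. The U2-associated helicase Ddx46 was higher by 2.03 (adjusted p = 3.89e-06) and 1.87 (adjusted p = 8.47e-06), and the spliceosome protein Cdc5l by 1.67 (adjusted p = 1.34e-05) and 1.62 (adjusted p = 2.02e-05). Clk3, a kinase of SR proteins, was lower, at -1.29 (adjusted p = 0.0033) and -1.497 (adjusted p = 0.00131). Ptbp1, a splicing repressor, was not called (0.04 and -0.04). Ptbp2 was higher, by 1.75 (adjusted p = 0.000254) and 1.40 (adjusted p = 0.00141), and so was Ptbp3, by 0.86 (adjusted p = 0.00289) and 0.61 (adjusted p = 0.0238).

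Assembly of the Sm ring needs the SMN complex and arginine methylation of Sm tails. Of 17 genes of this kind, 8 were higher in deficient tumors and 7 in control tumors, with 0 called lower in either. Over all genes, 18.7% and 13.0% were higher, and over the brighter 50% of genes 34.5% and 24.8%. The shares called lower were 19.0% and 11.3% of all genes and 19.8% and 16.0% of the brighter 50%. Tgs1, which trimethylates the snRNA cap, was higher by log2 2.75 (adjusted p = 4.83e-05) in deficient tumors and 2.04 (adjusted p = 0.000505) in control tumors. Strap was higher by 2.10 (adjusted p = 3.33e-07) and 1.58 (adjusted p = 2.71e-06), and Gemin5, which recognises the snRNA, by 1.35 (adjusted p = 0.00115) and 0.78 (adjusted p = 0.0329). Prmt5, a methyltransferase of Sm proteins, was called in control tumors (0.81, adjusted p = 0.0194) and not in deficient tumors (0.59, adjusted p = 0.0662), and between the tumor groups it was not called (-0.22, adjusted p = 0.583). The deficient tumors were not alike in Prmt5, at 10.35 and 10.30 in tumors 1 and 2 and 11.31 and 11.23 in tumors 3 and 4. Control tumors had 10.86 to 11.24 and normal thymocytes 10.185 to 10.24. Of 6 exon junction genes, 1 was higher and 2 lower in deficient tumors, and 1 higher and 1 lower in control tumors, to be read beside the same shares. No gene of these 3 lists was called between deficient and control tumors.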

How the data were processed

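Thymic RNA of 12 mouse samples was measured on single-channel Affymetrix arrays. The values deposited by the authors are log2 expression per probe set, and per the submitters' processing notes the tools were Affymetrix Expression Console and RMA, which corrects background and sets all arrays to 1 distribution of probe intensities. They were used unchanged. Of 23858 probe sets, 20870 carried 1 gene symbol in GEO's annotation of the platform, 1453 carried more and 1535 carried none. The brightest probe set per gene gave 19309 genes. Groups came from the labels. limma 3.58.1 (R 4.3.3) fitted 3 group means to all arrays, and p-values were adjusted by Benjamini-Hochberg over all genes of a comparison, with a threshold of 0.05. The fit was tested on simulated data. The number of arrays limits the precision. Alternatives were 4 other scalings, a filter on dim genes, the mean of all probe sets, an intensity trend and array weights. Others were fits of 2 groups, replicate blocks, and leaving out each array or either set of control tumors. The division into sets was seen in the values, and leaving out 3, 4 and 5 was added after seeing the data. Named genes were fixed genes, the called members of each role with the largest differences, those called lower, and the largest of the other lists, with further members named after their values were seen. The members and lists were chosen with earlier results of these data known. The main fit did not pair arrays by replicate number. Deviations from the group means correlated at -0.134 to 0.338 over 10 pairs of same-numbered arrays (median 0.003). Over 37 pairs with different numbers they correlated at -0.319 to 0.209 (median -0.018). These values do not settle whether the numbers pair the arrays.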

Additional observations from a re-analysis of the deposited data

Results flagged for a closer look

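In 3 of 142 sets of values (each splicing gene in each tumor group) a sample lay far from the others by Dixon's test, where chance gives about 1 in 20. Lsm11 was highest in control tumor 5, at 7.67, with 6.83 to 7.075 in the other control tumors. Prpf39 was lowest in deficient tumor 2, at 8.2, with 8.29 to 8.295 in the other deficient tumors. Snrpc was lowest in deficient tumor 1, at 8.92, with 9.27 to 9.31 in the other deficient tumors.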

How the results depend on the processing

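With 1 array left out at a time, limma called 26 to 37 splicing genes in deficient tumors against normal thymocytes, 15 to 25 in control tumors against normal thymocytes and 0 to 6 between the tumor groups, the last reaching 4 without control tumor 1 (5.24% of all genes) and 6 without control tumor 2 (7.68%). The medians ran from 0.282 to 0.35, 0.157 to 0.208 and -0.004 to 0.061 (log2). In deficient tumors against normal thymocytes the median moved to 0.113 after a second quantile normalization and 0.032 after cyclic loess, and turned to -0.041 after 75th percentile centring. In control tumors against normal thymocytes it turned to -0.05 after that centring and was 0.279 without control tumors 1 and 2, while the count was 34 without control tumors 3, 4 and 5 (21 higher and 13 lower, beside 19.2% and 16.3% of all genes). Between the tumor groups the median was -0.086, -0.161 and -0.095 under the second quantile normalization, 75th percentile centring and cyclic loess, and the count was 18 with array weights (17.2% of all genes) and 28 without control tumors 1 and 2. Hnrnpul2 in deficient tumors turned to -0.035 under 75th percentile centring, and Lsm5 in control tumors to -0.731 (adjusted p = 0.00284) without control tumors 3, 4 and 5. The cause of these changes was not tested. With replicate number as a block the counts were 34, 24 and 0. Whether the numbers pair the arrays is not settled.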
